A study of Cannabis sativa with 6 samples.

Results

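A set of 145 genes supplied much of the messenger RNA sequenced from control leaves of *Cannabis sativa* and was at least 4 times lower in leaves kept at 45 °C. The members were chosen by their measured levels: an average of 500 CPM or more over the control libraries, 1 or more counts over the heat libraries, and a control average at least 4 times the heat average. CPM here are counts per 1000000 gene counts of the library. The count files hold 34253 genes, of which 33673 have a LOC symbol and could enter. Of these, 202 reached 500 CPM in control, and 145 of the 202 met the ratio. Since the contrast of heat with control chose the members, their differences are given as a description, and no test is drawn from them.

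The plants were of one cultivar, Pink Pepper, germinated for 15 days and then grown in pots for 3 weeks before the treatment. One group stayed at 23 ± 1 °C and the other was held at 45 ± 2 °C, both for 7 days and both at a relative humidity of 40 ± 4%. Leaf RNA was read in 3 control and 3 heat libraries of 28492832 to 36584253 gene counts, made with a kit that selects polyadenylated RNA. Nothing in the labels ties a library to a plant of its own, so the spreads given here may be technical. The standard errors and test calls below rest on the same spread between libraries and share this limit. No earlier time and no recovery were sampled in the libraries used here.

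In a green leaf a small number of genes usually supplies a large part of the messenger RNA, because the cell must keep making the proteins of photosynthesis and carbon metabolism in bulk. In plants, prolonged heat is known to lower many such transcripts and to raise those of chaperones. Which members belong to those pathways is not given by the sources used here. The files name the members by locus number alone, and the gene table used beside them (RefSeq, assembly ASM2916894v1) gives no products, so no role is assigned to any member and the leaf label could not be checked against marker genes. The table matched all 145 members, and all 145 are protein-coding.

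The 145 members held 32.2% ± 0.0710 of all gene counts in a control library and 1.67% ± 0.0170 of a heat library (SD, n = 3), a ratio of 19.3. By library the share was 32.2%, 32.1% and 32.3% in control and 1.65%, 1.68% and 1.67% in heat. The libraries of a group differed by far less than the groups did, and no library stood apart. The other 57 genes that reached 500 CPM in control summed to 6.02% ± 0.0158 of a control library and 9.58% ± 0.112 of a heat library. A single one, LOC133034289, stood at 2067 CPM in control and 19701 CPM in heat, and without it the sums were 5.81% ± 0.0265 and 7.61% ± 0.0764. As single genes the 57 went both ways, with 27 called lower and 28 called higher by edgeR at an adjusted p under 0.05 (background 46.4% and 44.3% of the tested genes) and a median log2 fold change of 0.04. A mirror set of 195 genes had 500 CPM or more in heat, at least 1 control count and a heat average at least 4 times the control average, and 5 of the 57 are among them. The 195 went from 2.12% ± 0.0169 to 25.4% ± 0.112. These shares add to a fixed whole within a library: the counts outside the members made up 1.45 times as large a share in heat as in control, so a gene outside the set that kept its share of those counts gained 0.54 in log2 CPM.

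**Figure D1:**
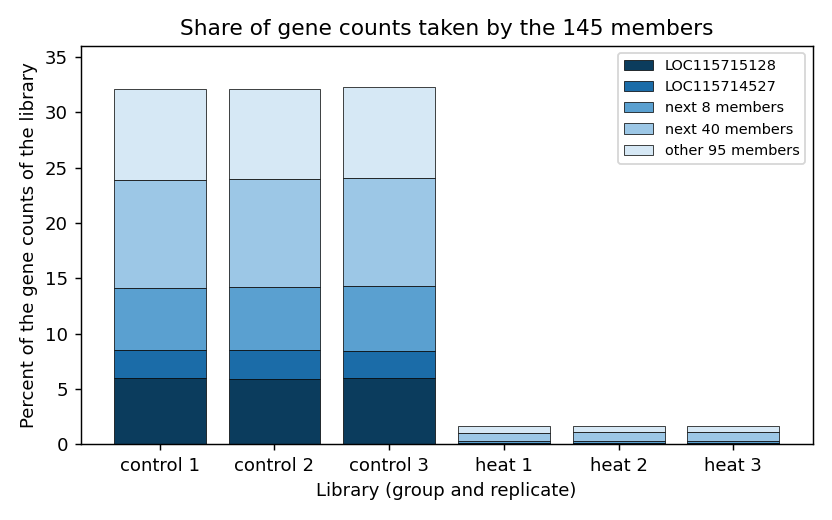
Percent of the gene counts of each library (y axis, 3 control and 3 heat libraries on the x axis) taken by the 145 members, stacked by their order in control. The bars reach about 32.2% in each control library and stay under 2% in each heat library, and the darkest segment is LOC115715128 alone.

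In bulk leaf tissue, fewer cells of a type and less RNA per cell cannot be told apart. Of the listed reads, 1.79% ± 0.0634 in control but 6.05% ± 0.108 in heat were assigned to no gene feature in the counting. The use of strand is not given, so whether these reads lay outside annotated exons is not known. Reads with several alignment positions were 4.22% ± 0.0442 and 5.07% ± 0.0735. Their part in the lower level of the members was not tested. Counted over all listed reads, unassigned ones included, the members took 28.6% ± 0.117 in control and 1.40% ± 0.0158 in heat.

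The member with the most control counts was LOC115715128. It stood at 59712, 59000 and 60290.1 CPM in the control libraries and at 1191, 1183 and 1222 CPM in the heat libraries, a ratio of 49.8 and a log2 fold change of -5.57 ± 0.04 (SE; edgeR). The groups did not overlap, and the lowest control value was 48.3 times the highest heat value. It took 5.97% of the control gene counts, and even after the fall it kept the highest level of all members in heat, at rank 70 of all genes by mean heat CPM. LOC115714527 came second in control. Its levels were 25108, 26368 and 24237 CPM in control and 203, 217 and 203 CPM in heat, a ratio of 122 (log2 fold change -6.86 ± 0.04). The groups again lay far apart, and the rank of LOC115714527 among all genes went from 2 to 908.

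Behind these, 8 members lay between 4595 and 9627 CPM in control. LOC115716971 stood at 9835, 9514 and 9531 CPM in control and at 181, 177 and 187 CPM in heat, a ratio of 53.0. LOC115701247 went from 8966, 8789 and 9369.5 CPM to 320.1, 320.4 and 313 CPM, the smallest ratio of the 10 leading members at 28.5. LOC115708105 went from 7819.6, 7889.5 and 7840.4 CPM to 201, 218 and 208 CPM, a ratio of 37.6. In all 3 the heat values were tight around a level far below that in control. LOC115712250 had control values of 6427, 6446 and 6394 CPM and heat values of 76.6, 88.3 and 82.5 CPM, a ratio of 77.9. LOC115706508 had 5051, 4949 and 5051 CPM against 96.7, 97.1 and 106 CPM, a ratio of 50.2. LOC115699353 had 4564, 4629.5 and 4590.4 CPM against 87.9, 95.3 and 83.6 CPM, a ratio of 51.7. Within each of these genes the libraries of a group lay close together and the groups were separated by more than an order of magnitude. The remaining pair of the leading 10, LOC115696993 and LOC115696924, lie next to each other in the genome and are described below.

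CPM were not divided by transcript length, which was not used here, so the order of the members is an order of read counts and not of transcript numbers. The 10 leading members together took 14.2% ± 0.0763 of the control gene counts and 0.254% ± 0.00229 of the heat gene counts, a ratio of 56.1. The counts of the members were concentrated: 15 of the 145 held 50% of their summed control CPM. In heat 20 members were needed for 50% of the sum, and LOC115715128 made up 7.19% of it where it had made up 18.5% in control. For 90% of the sum the order was reversed, with 95 members needed in control and 73 in heat.

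**Figure D2:**
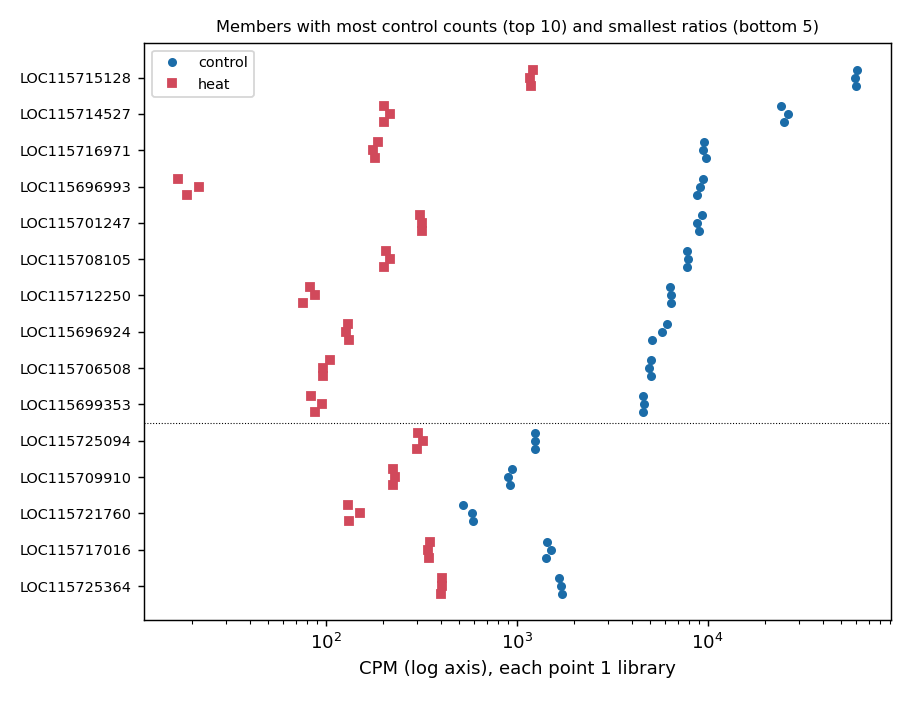
CPM in each library (x axis, log scale) for the 10 members with the most control counts, above the dotted line, and the 5 members with the smallest ratio of control to heat, below it; each point is 1 library. The control and heat points are separate for every gene shown: the lowest control value is 406 times the highest heat value for LOC115696993 and 3.48 times for LOC115721760.

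The members differed widely in how far they were lowered. Ratios of control to heat ran from 4.03 to 9933, with a median of 20.3 and quartiles of 9.58 and 56.1. Of the 145, 31 had a ratio under 8, 28 one of 8 to 16, 30 one of 16 to 32 and 25 one of 32 to 64. The other 31 had ratios of 64 or more, 21 of them 128 or more. Across the 145 members, log2 control CPM and the log2 ratio had a Pearson r of 0.062 and a Spearman rho of 0.047, and log2 control and log2 heat CPM an r of 0.41 and a rho of 0.48. The rule cut the genes on both the control level and the ratio, the control level is part of the ratio, and the genes share libraries, so these values describe the chosen set and show nothing about a relation between level and ratio.

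**Figure D3:**
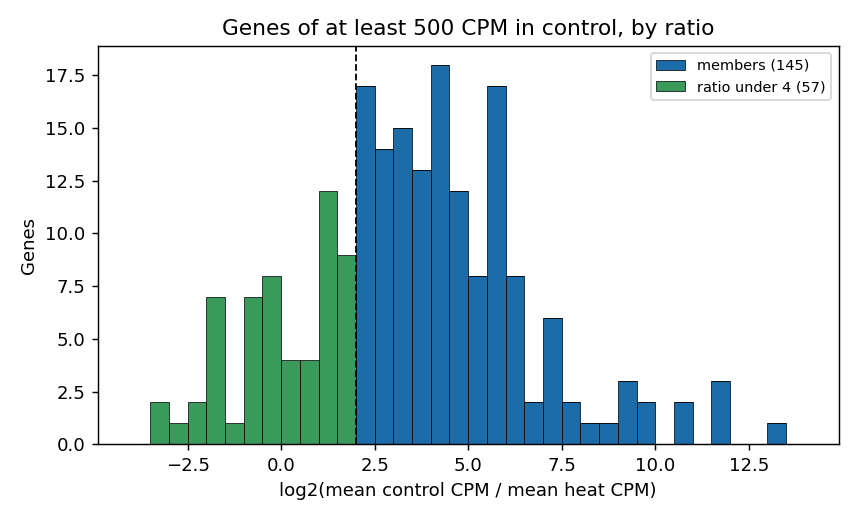
Number of genes (y axis) by the log2 ratio of mean control to mean heat CPM (x axis) for the 202 genes of at least 500 CPM in control; the dashed line is the ratio of 4 that divides the 145 members from the other 57. The members form a broad distribution with a long tail to the right, up to a ratio of 9933.

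At the lower edge of the rule the members merge with the genes outside it. LOC115725094 had the smallest ratio, 4.03, with 1246, 1249 and 1254 CPM in control and 302, 323 and 305 CPM in heat. LOC115709910 had 926, 902 and 946 CPM and 226, 231 and 225 CPM, a ratio of 4.07. LOC115721760 had 589, 585 and 526 CPM and 133, 151 and 132 CPM, a ratio of 4.09. In each the groups were separate, but the lowest control value of LOC115721760 was only 3.48 times its highest heat value. LOC115717016 followed with 1422, 1508 and 1439 CPM against 347, 343 and 354 CPM, a ratio of 4.18. LOC115725364 had 1736, 1708 and 1676 CPM against 403, 405 and 408 CPM, a ratio of 4.21. In both of these the lowest control value was still more than 4 times the highest heat value. Just outside, LOC115725518 went from 2233 ± 78.3 CPM to 572 ± 14.5 CPM (SD, n = 3), a ratio of 3.91. The next, LOC115706592 and LOC115721691, had ratios of 3.65 and 3.39. On the side of the level, LOC115710033 entered with 501 CPM in control, while LOC115723393 at 499 ± 4.59 CPM, LOC115707211 at 499 ± 5.01 CPM and LOC115712620 at 498 ± 5.16 CPM stayed outside. LOC115723393 was listed with 0.139 ± 0.0935 CPM in heat, a ratio of 3589.9, which a single member exceeded.

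**Figure D4:**
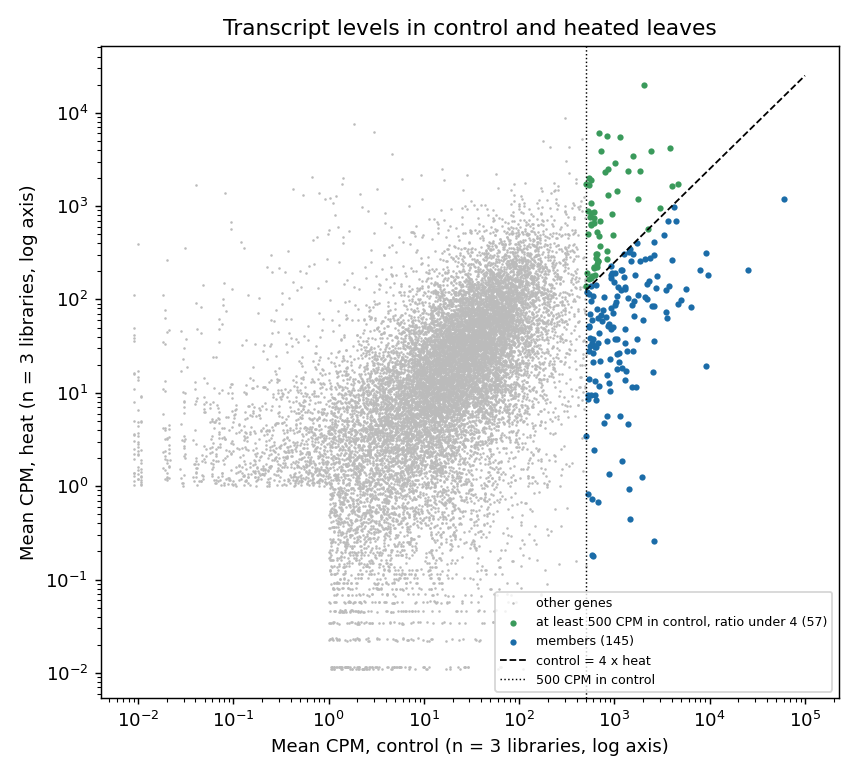
Mean CPM in control (x axis) and in heat (y axis), both on log scales and over 3 libraries. The genes shown have a LOC symbol, at least 1 CPM in either group and a value above 0 in both. The 145 members lie to the right of the dotted line at 500 CPM and below the dashed line where control is 4 times heat; the other 57 genes of that control level lie above the dashed line.

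Most members kept a measurable level in heat. Of the 145, 4 still stood at 500 CPM or more in heat, 49 at 100 to 500 CPM, 70 at 10 to 100 CPM, 14 at 1 to 10 CPM and 8 under 1 CPM. The median member had 1079 CPM in control and 63.3 CPM in heat. By rank of mean CPM over all genes, 85 of the 145 were among the first 100 in control and 1 was among the first 100 in heat. The first 1000 genes of heat held 25 members, and the first 5000 held 90. The median rank of a member was 85.0 in control and 3243 in heat.

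By control level, 64 members lay at 500 to 1000 CPM, 47 at 1000 to 2000 CPM, 25 at 2000 to 5000 CPM, 7 at 5000 to 10000 CPM and 2 above that.

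The 3 members with the highest heat levels were LOC115715128, LOC115717421 and LOC115722491. LOC115717421 stood at 4222, 4171 and 4205 CPM in control and at 952, 969.9 and 978 CPM in heat, a ratio of 4.34 (log2 fold change -2.05 ± 0.03). LOC115722491 stood at 3708, 3765 and 3562 CPM and at 656, 757 and 669 CPM, a ratio of 5.30, with heat replicate 2 above both others. The remaining member above 500 CPM in heat, LOC115712845, was named after its values were seen and had 4504, 4419 and 4491 CPM in control and 688, 689.9 and 696 CPM in heat, a ratio of 6.47. Of the 10 members highest in control, 2 were also among the 10 highest in heat, LOC115715128 and LOC115701247. In the first case the high remaining level went with a ratio of 49.8, in LOC115717421 with a ratio near the threshold.

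At the other end, the 5 largest ratios belonged to genes with few reads left in heat. LOC115719616 had 2655, 2564 and 2579 CPM in control and 9, 14 and 0 counts in the heat libraries. That is a ratio of 9933, with an exact 95% interval of 6575 to 15564 for the ratio of summed counts, which covers counting error only. LOC115722276 had 599.8, 593 and 601 CPM in control and 10, 6 and 0 counts in heat, a ratio of 3315 (interval 2011 to 5713). In both, all heat counts lay in replicates 1 and 2 and replicate 3 had none. LOC115724861 had 595, 570.3 and 577 CPM in control and 0, 16 and 0 counts in heat, so that its whole heat level came from heat replicate 2. Its ratio was 3142. Without that library no heat count was left, and a floor of 3 counts over the remaining heat libraries together gave a lower bound of 11326. This bound covers counting error only and not the spread between libraries, as the 16 counts of heat replicate 2 show. Without heat replicate 2 the ratio of LOC115719616 was 17337, and without heat replicate 3 it was 6622. That of LOC115722276 was 5752 without heat replicate 1 and 2210.2 without heat replicate 3.

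LOC115707554 and LOC115709925 complete the 5 and were counted in every heat library. LOC115707554 had 1457, 1436 and 1453 CPM in control and 10, 19 and 10 counts in heat, a ratio of 3237 (interval 2374 to 4564). LOC115709925 had 1441, 1415 and 1449 CPM in control and 30, 40 and 12 counts in heat, a ratio of 1534 (interval 1232 to 1923). A ratio above 1024 was reached by 1 further member, LOC115708243, which was named after its values were seen. It had 1951, 1914 and 1920.0 CPM in control and 36, 55 and 19 counts in heat, a ratio of 1533. All 3 thus passed from well over 1000 CPM to heat means of 0.448, 0.936 and 1.26 CPM, in the order given. In each the heat counts were highest in replicate 2.

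Of the 8 members under 1 CPM in heat, 3 remain, and all 3 were named after their values were seen. LOC115702974 had 693, 666 and 665 CPM in control and 15, 22 and 22 counts in heat, a ratio of 995. LOC115724631 had 596, 579 and 588 CPM in control and 12, 30 and 22 counts in heat, a ratio of 797. LOC115721690 had 513, 525 and 527 CPM in control and 25, 24 and 23 counts in heat, a ratio of 633. Every heat library held reads of all 3, and LOC115721690 varied least, with a heat CV of 1.76% against 22.8% and 43.6% for the others.

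The members were measured with small spread between libraries. The coefficient of variation (CV, the SD as a percent of the mean) over the control libraries had a median of 1.55% and was under 5% for 141 of the 145. Over the heat libraries the median was 4.37%, and 122 of the 145 were under 10%. For the 57 abundant control genes outside the rule the medians were 1.73% and 2.39%. Their heat counts were higher, at a median of 66444 summed counts against 5530 for the members. The part of the number of counts in these CVs was not tested. The 3 largest control CVs among the members were those of LOC115696924 (8.83%), LOC115712996 (6.23%) and LOC115721760 (6.19%). LOC115712996 had 1436, 1409 and 1276 CPM in control and 4.20, 5.82 and 4.04 CPM in heat, a ratio of 293. The 3 largest heat CVs were those of LOC115724861, LOC115719616 and LOC115722276, the 3 members with a heat library at 0 counts. In control, replicate 2 held the lowest value of the group for 69 of the 145 members, and in heat replicate 1 did so for 55. No library was the highest for more than 64 members, which was heat replicate 2.

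The quasi-likelihood test of edgeR was run on 17727 genes with Benjamini-Hochberg adjustment: all 145 members passed the filter on low counts and all 145 were called lower in heat at an adjusted p under 0.05, where 46.4% of all tested genes were so called. Every control library was above every heat library for all 145, and for 47.7% of the tested genes. Both counts follow from the choice of the members and say nothing further about them. The median log2 fold change of the members was -4.28, with single values from -13.18 to -1.95, and that of all tested genes was -0.05. The lowest control value was at least 4 times the highest heat value for 142 members, and 143 had 500 CPM or more in each control library.

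The share of genes lowered at least 4 times differed with the level in control. The shares by level, in both directions, were taken over genes with a LOC symbol. Of the 95 genes of at least 1000 CPM in control, 81 were at least 4 times lower in heat (85.3%), and of the 107 at 500 to 1000 CPM, 64 were (59.8%). The share was 32.6% of 1490 genes at 100 to 500 CPM, 22.4% of 2174 at 50 to 100 CPM, 19.6% of 6606 at 10 to 50 CPM and 27.3% of 4968 at 1 to 10 CPM. Taken the other way round, 75.0% of the 96 genes of at least 1000 CPM in heat were at least 4 times lower in control, and 67.0% of the 188 at 500 to 1000 CPM. It was 30.6% of 1871 at 100 to 500 CPM in heat, 16.3% of 1841 at 50 to 100 CPM, 11.0% of 5352 at 10 to 50 CPM and 16.2% of 5287 at 1 to 10 CPM. In both directions the share was largest at 500 CPM and more and smallest at 10 to 50 CPM, with a higher value again at 1 to 10 CPM. Taking genes by a high level in one group favours genes that are lower in the other, so the shares are given with no test. Genes abundant in both groups were few, 40 at 500 CPM or more in each. Of the 202 abundant control genes, 21 were lower by 2 to 4 times, 23 lay within 2 times of their control level and 13 were more than 2 times higher in heat.

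**Figure D5:**
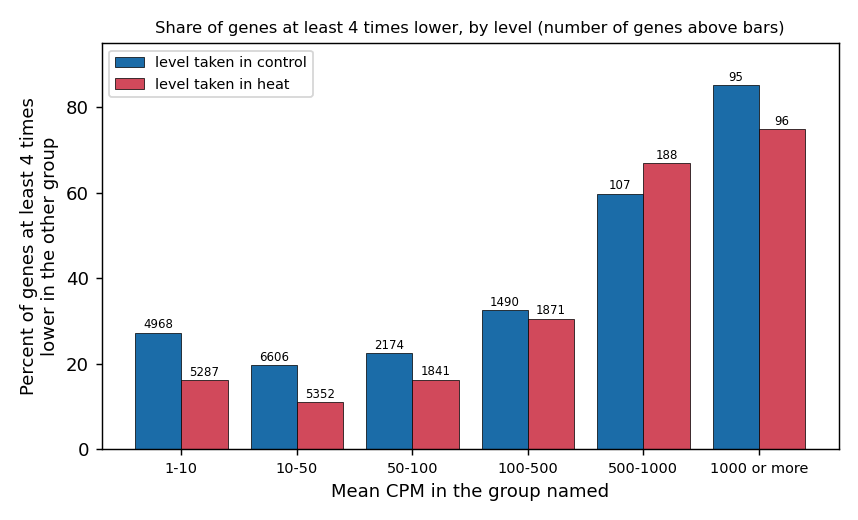
Percent of genes with a LOC symbol that were at least 4 times lower in the other group (y axis) by mean CPM in the group named (x axis). The number above each bar is the number of genes in it. The bars for 500 CPM and more are the tallest in both groups, from 59.8% to 85.3% where the level is taken in control.

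Position in the genome was not used to choose the members, and the order of protein-coding genes in the gene table places 144 of them. Only 4 of the 144 lay directly next to another member, as 2 pairs (2.78%). Of the 57 other abundant control genes 56 could be placed and 2 had such a neighbour (3.57%), and of 192 placed mirror genes, those abundant in heat, 15 had one (7.81%). Within 5 places, 10 members (6.94%) and 30 mirror genes (15.6%) had another of their own set. The sets differ in size, which sets how often members meet, and these counts were not tested.

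The first of the neighbouring pairs is LOC115696993 and LOC115696924, both among the 10 leading members. LOC115696993 went from 8809, 9147 and 9476 CPM to 18.9, 21.7 and 17.0 CPM, a ratio of 477 (log2 fold change -8.83 ± 0.06). LOC115696924 went from 5119.5, 5760.3 and 6105 CPM to 133, 128 and 132 CPM, a ratio of 43.3 (-5.37 ± 0.07). In control both were lowest in replicate 1 and highest in replicate 3, while in heat they had no such order in common. In the other pair, LOC115707554 had almost no heat reads (above), and its neighbour LOC115707556, which overlaps 4 further genes of the table, went from 846, 834 and 847 CPM to 36.5, 33.1 and 37.0 CPM, a ratio of 23.7. In both pairs the 2 neighbours were lowered by factors that differ by more than 10 times. Whether the genes of a pair are copies of each other could not be read from the files, and reads that fit several places were listed apart from the gene counts.

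Members 4 places apart in the same order form 3 more pairs. LOC115719616, with the largest ratio of all, lies 4 places from LOC115719615, which went from 922, 907 and 935 CPM to 84.2, 77.0 and 81.1 CPM, a ratio of 11.4. LOC115725060 and LOC115725263 had ratios of 58.7 and 9.76, and LOC115707876 and LOC115707880 ratios of 20.3 and 9.96. Closeness did not come with equal ratios in these 5 pairs.

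The protein-coding genes directly beside members that are not members themselves spread in both directions. Of 284 such neighbours 209 were tested, and edgeR called 111 lower (53.1%, where 46.4% of all tested genes were) and 84 higher (40.2%, against 44.3%). Their median log2 fold change was -0.47, with quartiles of -1.95 and 0.92, beside -0.05 for all tested genes with quartiles of -1.71 and 1.31. Beside the mirror genes, 94 of 257 tested neighbours were called lower (36.6%) and 139 higher (54.1%). These shares are a description, and the difference between them was not tested.

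Another gene of the RefSeq table overlaps 18 members, so that reads in the shared stretch can be counted as ambiguous, and the use of strand in the counting is not given in the sources used here. Of the overlapping partners, 17 had at least 100 counts summed over a group. A single partner reached 10% of its member's control level: LOC115719620, which overlaps LOC115719615 and had 120.4 CPM in control and 1.53 CPM in heat. In heat LOC133036025 stood at 76.1 CPM, above its member LOC133036030 at 18.3 CPM. LOC115701451 stood at 39.1 CPM in heat, above LOC115701450 at 12.7 CPM. The other counted partners lay below their members in heat. The effect of the overlaps on the ratios was not tested. Of the 17, 3 were lower in heat by 4 times or more and 8 were higher. Ambiguous reads were 2.73% ± 0.00877 of those listed for a control library and 1.75% ± 0.0187 for a heat library. LOC115709616 overlaps 6 partners and went from 3512, 3489 and 3475 CPM to 75.0, 74.5 and 73.1 CPM, while the highest of its partners stood at 30.9 CPM in control.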

How the data were processed

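Leaf RNA of 3 control and 3 heat libraries was used. The authors deposited raw counts per gene for each library, with 5 closing rows that name no gene, which entered neither library sizes nor tests (11.2% of listed reads for control, 15.9% for heat). Their normalized files hold the same counts times 1 factor per library and were not used. Trimmomatic 0.39, HISAT2 2.2.1, HTSeq 2.0.5 and DESeq2 were used, per the submitters' processing notes; roles, settings, genome build and strand are not given in the sources used here. Symbols and gene order came from a RefSeq table of ASM2916894v1, used for names, RNA class, neighbours and overlaps. CPM are counts per 1000000 gene counts. Heat was compared with control in R 4.3.3 with edgeR 4.0.16 (filterByExpr, TMM, robust glmQLFit and glmQLFTest, two-sided, no covariate, Benjamini-Hochberg, threshold 0.05), checked on simulated data; a SE is the log2 fold change over the square root of F. The simulated data had few changed genes, raised and lowered alike, so they did not test the scaling under the wide change seen here. Log2 fold changes use TMM-scaled libraries, ratios use CPM. The members, the lists and the rule for named genes were chosen with earlier results of these data known. That rule took the 10 members of highest control CPM, the 5 largest and 5 smallest ratios, the 3 of highest heat CPM, the 3 largest CVs in each group and 3 genes beyond each threshold; neighbours and overlaps were added after the data were examined. Planned protein similarity, promoter motifs, product-name lists, levels per length and counts by chromosome were not analysed here.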

Additional observations from a re-analysis of the deposited data

Results flagged for a closer look

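Among reads outside the gene counts, which choose no member, 3 kinds stood above the control level in every heat library. Reads assigned to no gene feature were 6.05% of the listed reads in heat (1.79% in control). Reads that did not align were 3.09% (2.43%), and reads aligned to several places 5.07% (4.22%).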

How the results depend on the processing

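The number of members depends on the thresholds and little on the libraries. It was 153 at a ratio of 3, 114 at a ratio of 8, 272 at 250 CPM, 81 at 1000 CPM, and 227 with CPM over the counts outside the members, a setting added after the data were examined that raises the control CPM most. With TMM-scaled CPM it was 141 and with DESeq2 size factors 138, all among the 145; without each library in turn it was 143 to 147, of which at least 143 were members. All 145 members were called lower under each of the 12 alternative fits, which follows from how they were chosen. The fits hold different numbers of genes. The fewest genes called lower were 7698 of 16353, with at least 1 CPM in 3 libraries. The most were 8736 of 34253, with no count filter. The median log2 fold change of the members was -4.31 with no count filter, -4.25 with RLE factors, -4.34 with total counts, -4.26 with DESeq2 and between -4.31 and -4.28 without each library in turn. The summed share over all listed reads was 28.6% in control and 1.40% in heat. With a replicate block, 8113 genes were called lower, against 8218, and all 145 members, with a median of -4.28. Libraries of equal replicate number deviated together with r between -0.0145 and 0.0103 in log2 CPM. For unequal numbers r lay between -0.0134 and 0.0190. No pairing by number was seen, but so few libraries cannot exclude one. Calls lost under the block are not read as weaker effects. None of the 276 alternative values of the 23 named members changed sign or lost its call. These members were chosen by the same contrast in the same libraries, so this follows from the choice and is no support. The largest shift was that of LOC115724861, from -11.54 to -17.15 without heat replicate 2, which held all its heat counts; this fitted value depends on the prior count. For members with few heat counts, depth limits the ratio: 3 counts in a heat library are 0.100 to 0.105 CPM. Protein identity thresholds were not run, since no sequences were used here.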
